A study of Mus musculus with 13 samples.

Results

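The genes for the proteins of the cytosolic ribosome were followed in whole mouse hearts by bulk RNA-seq. They were taken by name: protein-coding genes whose mouse symbol is Rpl or Rps with a number and at most a short suffix, together with Rpsa, Rplp0, Rplp1 and Rplp2. This gave 84 of the 55471 genes in the table, 52 of the large subunit and 32 of the small subunit. Of these, 82 had enough counts to be tested. The lowest expected count of any of the 82 in any library was 79.8, for Rps27rt, so all 82 were well above the filter in every group. Rpl10l had no counts in any of the 13 libraries, which allows at most 3 counts per library or 0.155 to 0.195 CPM (counts scaled to a common library size), counting error only. Rpl39l lay between 0 and 0.281 CPM. Neither was tested.

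There were 3 groups. R502W mavacamten comprised 4 libraries from mice with the R502W change in cardiac myosin-binding protein C (cMyBP-C, a thick-filament protein of the heart) that drank mavacamten, a small-molecule inhibitor of cardiac myosin, at 2.5 mg/kg/day for 21 weeks. R502W control comprised 4 libraries from mice with the same change and no drug, and WT control comprised 5 libraries from wild-type mice without drug. All mice were 24 weeks old per the design text, whereas the extraction protocol named younger hearts, and neither zygosity, strain nor sex was in the labels. Whether every library is a different animal was not stated, and the p-values therefore cover no more than the spread among the libraries as deposited. In whole tissue fewer cells of a type cannot be told apart from less RNA per cell.

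A ribosome is built of a small subunit, which reads the mRNA, and a large subunit, which joins the amino acids, each made of ribosomal RNA and many small proteins. Most mRNAs for these proteins begin with a C and a run of pyrimidines, the 5' terminal oligopyrimidine (TOP) tract, through which the mTOR pathway and the binding protein LARP1 control their translation and stability as a group. In striated muscle Rpl3, a protein near the peptidyl transferase centre, has a muscle-specific paralog, Rpl3l, which takes its place in a share of the ribosomes. The heart is therefore a tissue in which a core ribosomal protein comes in alternative forms.

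Libraries held 15350622 to 19361103 expected counts. Ventricular cardiomyocyte markers were present throughout: none of the 8 was at 0, and their summed level was 54950 to 76830 CPM in R502W mavacamten, 58650 to 67760 CPM in R502W control and 43170 to 61760 CPM in WT control. WT control replicate 2 stood apart. Its 11 T cell and thymus markers summed to 596.3 CPM, against 3.40 to 8.16 CPM in R502W mavacamten, 2.12 to 4.83 CPM in R502W control and 1.76 to 9.95 CPM in the other WT control libraries. Its 5 B cell markers summed to 312 CPM, against 13.9 to 130.1 CPM in R502W mavacamten, 16.4 to 22.9 CPM in R502W control and 14.9 to 210.2 CPM in the other WT control libraries. The number of ribosomal protein genes called against WT control and their median are therefore also given without it. So are the Rpl3l to Rpl3 ratio and the values of a few genes. Most values of single genes and of gene lists are given only with it. Libraries also differed in how their deviations followed gene length. Spearman's rho between a library's deviation and exonic length, across 14990 genes, was 0.112 to 0.225 in R502W mavacamten, 0.0787 to 0.262 in R502W control and -0.42 to -0.0754 in WT control, so shorter genes stood relatively higher in WT control.

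Together the 84 genes were lower in both R502W groups than in WT control. They summed to 10048, 10426, 10079 and 10516 CPM in R502W mavacamten, to 9923, 10266, 10455 and 10777 CPM in R502W control, and to 13196.5, 17762.5, 11622, 12601 and 11684 CPM in WT control. Neither R502W group overlapped WT control, while the R502W mavacamten sums lay within the R502W control range. As a share of all counts the genes took 0.890% to 1.11% in R502W mavacamten, 0.991% to 1.08% in R502W control and 1.17% to 1.89% in WT control. The T cell rich WT control replicate 2 was the highest library for 78 of the 82 tested genes, and the part of its lymphocyte content in their level was not tested. B cell markers summed to 14.9, 86.9, 210.2 and 22.7 CPM in WT control replicates 1, 3, 4 and 5. They summed to 13.9 to 130.1 CPM in R502W mavacamten and 16.4 to 22.9 CPM in R502W control. Their median log2 fold change against all of WT control was -1.791 in R502W control and -1.075 in R502W mavacamten. Among the 5, 1 was called lower in R502W control and none in R502W mavacamten. The 4 other WT control libraries, whose T cell and thymus markers summed to at most 9.95 CPM, also lay above all 8 R502W libraries in summed ribosomal level. The 5 endothelial markers, none at 0 in any library, went the other way and summed to 589.4 to 810.3 CPM in R502W mavacamten, 767.0 to 896.7 CPM in R502W control and 492.1 to 672.5 CPM in WT control, without overlap between R502W control and WT control. The 5 adipocyte markers summed to 3.73 to 341.8 CPM in R502W mavacamten, 1.41 to 253.8 CPM in R502W control, where up to 2 were at 0 in a library, and 8.64 to 334.4 CPM in WT control, with median log2 fold changes against WT control of -0.69 in R502W mavacamten and -0.81 in R502W control and no call. The atrial, macrophage, fibroblast and skeletal muscle sums overlapped between all groups. The part of these cell types in the ribosomal levels was not tested.

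**Figure D1:**
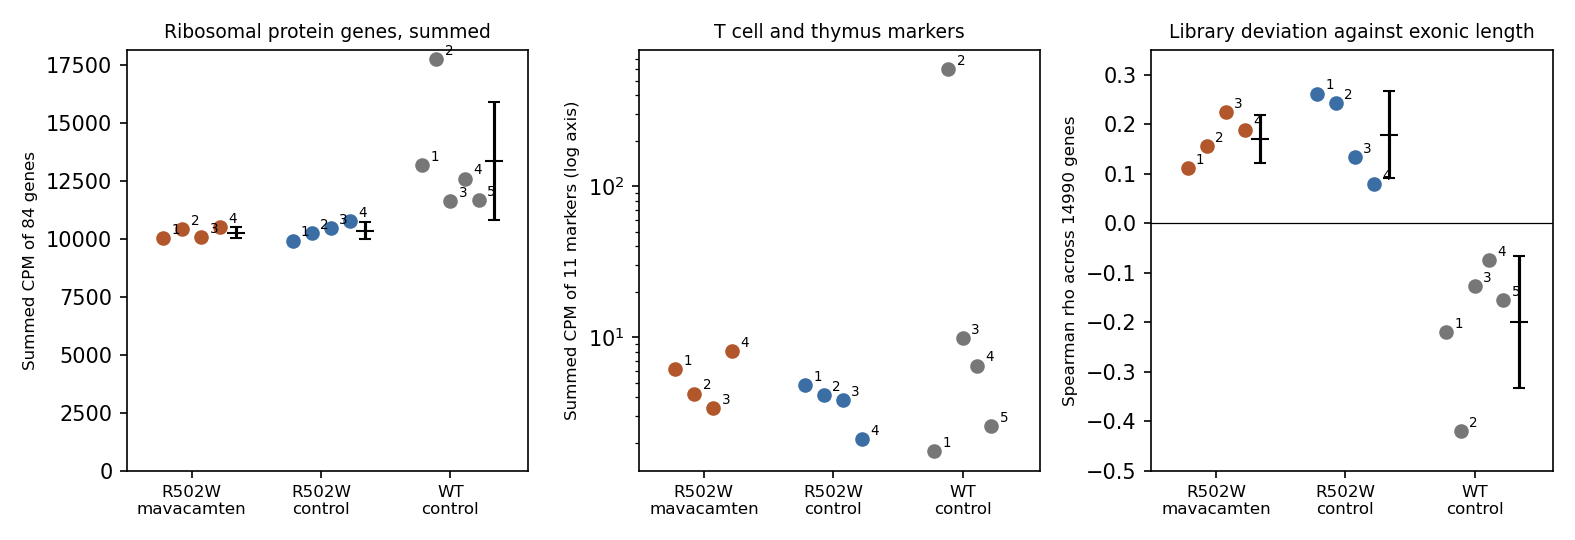
Per-library values in R502W mavacamten, R502W control and WT control. Left, summed CPM of the 84 ribosomal protein genes; middle, summed CPM of 11 T cell and thymus markers on a log axis; right, Spearman's rho across genes between a library's deviation and exonic length. Points are libraries with their replicate number, and bars in the left and right panels are mean ± SD. WT control replicate 2 has the highest ribosomal sum (17762.5 CPM) and the highest marker sum (596.3 CPM), and all 8 R502W libraries lie below all 5 WT control libraries in the left panel.

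The genotype comparison asks how untreated R502W hearts differ from WT hearts. Of the 82 ribosomal protein genes tested, 35 fell in R502W control and none rose (adjusted p under 0.05 by edgeR's quasi-likelihood test over 15000 genes), which is 42.7% against a background of 3.75% of all genes called lower and 8.63% called higher. The falls were moderate. The median log2 fold change was -0.37, or 0.774-fold, against -0.01 over all genes tested, and called genes ranged from 0.526-fold to 0.799-fold. Of the 82 values, 81 lay below 0, including those not called, against 7661 of all 15000 genes. At an unadjusted p under 0.05 there were 62 of the 82, against 4361 of all 15000 genes in either direction. Both subunits took part, with 20 of 50 large-subunit genes and 15 of 32 small-subunit genes called. In 44 of the 82 the groups did not overlap, all with R502W control lower, against a background of 5.45% of all genes not overlapping and lower and 12.3% not overlapping and higher, and 32 of the 35 called genes were among them. The ranges of Rpl36a, Rpl39 and Rps7 overlapped.

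Rpl15 (ENSMUSG00000012405), a core protein of the large subunit, had the lowest fold change on its own row of the table. It had 97.7, 85.3, 91.9 and 90.6 CPM in R502W control, against 164, 234, 164, 170.5 and 136 CPM in WT control. The groups were well apart, and the log2 fold change was -0.93 ± 0.13 (SE; edgeR adjusted p = 0.000995). Rps27 (ENSMUSG00000090733), a zinc-finger protein of the small subunit, had 47.1, 52.1, 51.5 and 67.5 CPM in R502W control, against 85.2, 122, 76.3, 89.6 and 78.4 CPM in WT control. R502W control replicate 4 was its highest R502W control library and still below every WT control library (log2 fold change -0.73 ± 0.14, edgeR adjusted p = 0.0049).

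Rps6, the substrate of the S6 kinases downstream of mTOR, had 159.5, 172, 152 and 180.0 CPM in R502W control, against 247, 351.5, 211, 240.1 and 222 CPM in WT control. No R502W control library reached the lowest WT control library (log2 fold change -0.62 ± 0.13, edgeR adjusted p = 0.0095). Rps12, another small-subunit protein, had 93.6, 91.5, 95.7 and 98.96 CPM in R502W control, against 131, 197, 132, 142 and 119 CPM in WT control. Its R502W control libraries lay close together and below all of WT control (log2 fold change -0.61 ± 0.12, edgeR adjusted p = 0.00698). Rps15a fell by 0.58 ± 0.12, Rpl26 by 0.52 ± 0.11 and Rps4x by 0.49 ± 0.11 on the log2 scale, each without overlap between the groups. Rps4x is the X-linked form of its protein and the only Rps4 gene among the members.

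Smaller values were found in the ribosomal stalk. Rplp0, the base of the stalk that recruits the translation factors, fell by 0.32 ± 0.09 on the log2 scale (edgeR adjusted p = 0.0349), with 456, 459, 479.8 and 503 CPM in R502W control, against 623, 706, 506, 579.7 and 553 CPM in WT control. Its highest R502W control library lay just under its lowest WT control library. Rplp1 and Rplp2, the acidic proteins carried by Rplp0, were not called (log2 fold change -0.31 ± 0.12 and -0.31 ± 0.10, edgeR adjusted p = 0.116 and 0.0517). Rpsa, a small-subunit protein also known as a laminin receptor precursor, was not called either, at -0.36 ± 0.13 with an adjusted p of 0.0829.

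The most abundant members did not show the lowest fold changes. Per kb of mRNA the highest levels over the 13 libraries were those of Rps2 (458.9 CPM per kb), Rpl23a (400.0), Rplp1 (399.4), Rplp0 (381.0) and Rps15 (344.8). Of these, Rpl23a fell by 0.33 ± 0.10 and Rplp0 as above, whereas Rps2 had -0.16 ± 0.10 and Rps15 -0.28 ± 0.10 on the log2 scale without a call in R502W control. Across the 82 genes the fold change was nearly unrelated to exonic length (Spearman's rho 0.01) and to the level per kb (0.10). These are descriptions over genes that share their libraries. Rpl7l1, a paralog of Rpl7, was the only tested member above 0, at 0.07 ± 0.11, with 29.5, 33.8, 35.8 and 37.8 CPM in R502W control, against 33.6, 41.3, 31.1, 31.1 and 26.6 CPM in WT control.

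**Figure D2:**
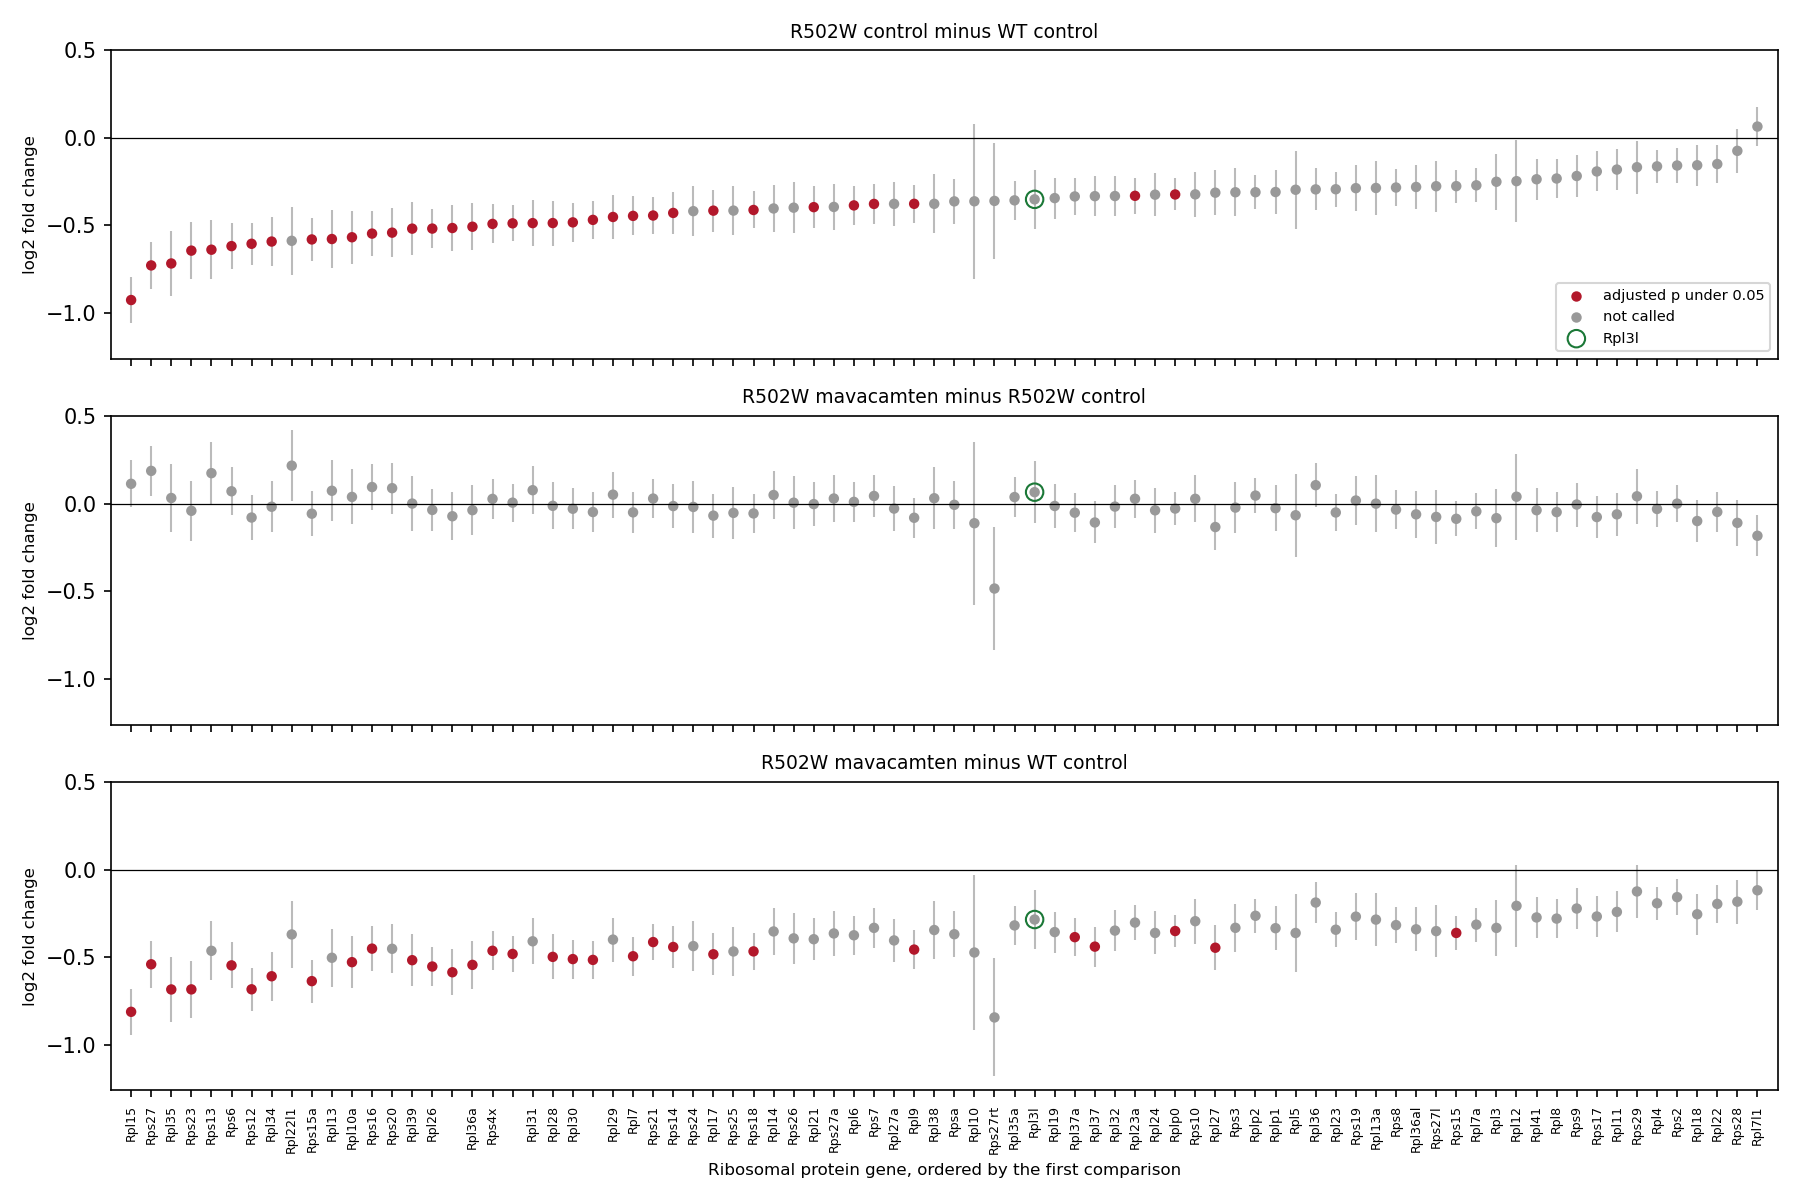
Log2 fold change of the 82 tested ribosomal protein genes in R502W control minus WT control (top), R502W mavacamten minus R502W control (middle) and R502W mavacamten minus WT control (bottom), all ordered by the top panel; bars are SE, red points have an adjusted p under 0.05 and the green ring marks Rpl3l; a few points have no gene label. In the top panel 81 of 82 points lie below 0 and 35 are red, in the middle panel none is red, and in the bottom panel all 82 lie below 0 and 30 are red.

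The number of genotype calls depended on single libraries more than the direction did. It was 10 without R502W control replicate 1, 20 without replicate 2, 12 without replicate 3 and 18 without replicate 4. Whichever of the 13 libraries was left out, 9 genes were called, among them Rpl15, Rps27, Rps12, Rps15a, Rps6, Rpl26, Rps4x and Rpl30. How many of all genes met this was not counted. Without WT control replicate 2, the T cell rich library, 51 genes were called, all 35 among them, at a smaller median of -0.28. Scaling by library totals gave 20 calls, a fit of only the 2 groups gave 22 and DESeq2 gave 54, all of them lower. Calls lower over all genes also moved, from 562 in the full fit to 231, 263, 208 and 353 without R502W control replicates 1 to 4. They were 695 without WT control replicate 2, 341 with library totals, 394 with only the 2 groups and 1080 with DESeq2.

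Ribosomal protein genes are short, and shorter genes stood higher in WT control, so genes of like exonic length were set beside them. Exonic length here joins all annotated exons of a gene and for many members is well above the mRNA length. For Rps27 it was 1043 bases against an mRNA of 345, and for Rpl35a 3526 against 519, whereas for Rplp1 both were 499. A match on mRNA length was not made. The matched genes were the 5376 other tested genes with an exonic length of 849 to 3523 bases (the span of the middle 80% of the members). Of these, 5.73% were called lower and 2.66% higher in R502W control, 3652 lay below 0, and the median was -0.13. Of the 814 of these that also had a similar level, 10.2% were called lower, with a median of -0.11. With each library's trend along exonic length removed, 25 of the 82 ribosomal protein genes were called lower, all among the 35. The median of the 82 was then -0.25, and 528 of all 14990 genes were called lower. The genes of similar length were not counted apart in that setting. Of the genes described above, Rplp0 and Rpl23a lost their call, as did Rps23, Rpl36a, Rpl31, Rpl13, Rpl17, Rpl39, Rps7 and Rpl21.

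**Figure D3:**
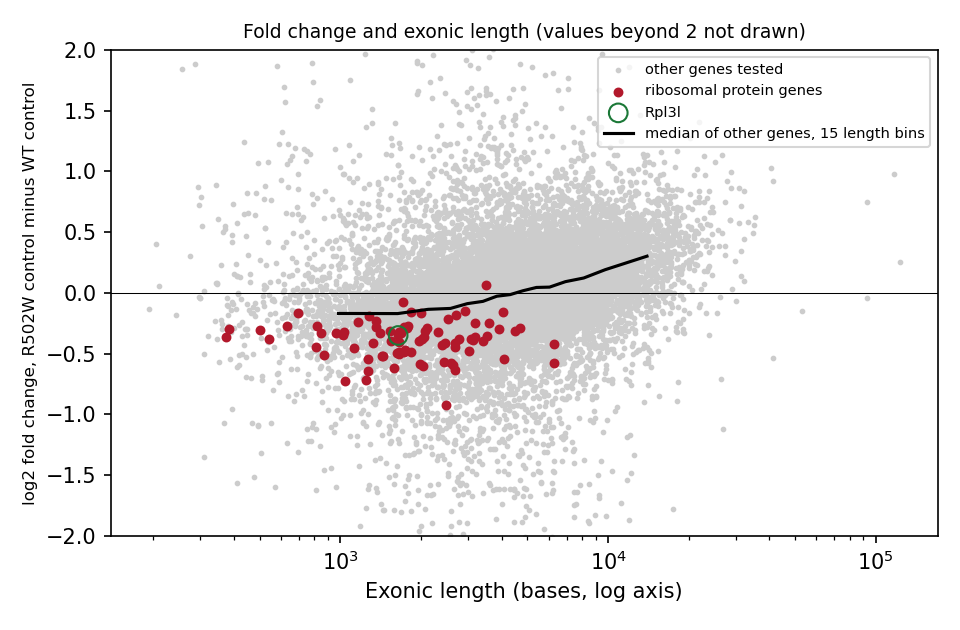
Log2 fold change in R502W control minus WT control against exonic length on a log axis, for ribosomal protein genes (red) and other tested genes (grey), 14840 genes in all; 150 genes beyond a log2 fold change of 2 are not drawn. The black line joins the medians of the other genes in 15 length bins and the green ring marks Rpl3l. Nearly all red points lie below the line, whose short end is itself below 0.

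Because the TOP tract marks these mRNAs, the bases around the annotated transcription start were read for the genes with the lowest adjusted p and for Rpl3l (RefSeq, GRCm38.p6; 30 bases before and 30 from the start, transcript strand, 5' to 3'). Capitals mark the longest run of C or T.
Rpl15 (chr14:18270957-18271016, minus strand): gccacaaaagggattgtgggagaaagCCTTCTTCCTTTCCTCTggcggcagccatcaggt
Rps27 (chr3:90213619-90213678, minus strand): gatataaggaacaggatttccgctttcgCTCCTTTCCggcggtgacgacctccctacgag
Rps12 (chr10:23787180-23787239, minus strand): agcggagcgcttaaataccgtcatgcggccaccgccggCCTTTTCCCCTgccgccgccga
Rps15a (chr7:118116118-118116177, minus strand): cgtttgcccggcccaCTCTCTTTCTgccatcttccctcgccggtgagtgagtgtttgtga
Rps6 (chr4:86857338-86857397, minus strand): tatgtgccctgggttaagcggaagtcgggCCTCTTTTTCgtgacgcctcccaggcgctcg
Rpl26 (chr11:68901536-68901595, plus strand): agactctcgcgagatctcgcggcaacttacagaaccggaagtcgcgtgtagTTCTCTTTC
Rps4x (chrX:102189362-102189421, minus strand): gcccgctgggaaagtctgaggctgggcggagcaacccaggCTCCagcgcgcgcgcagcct
Rpl3l (chr17:24727796-24727855, plus strand): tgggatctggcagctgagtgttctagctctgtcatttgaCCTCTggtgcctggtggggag

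The runs in Rpl15 (17 bases), Rps27 (9 bases) and Rps6 (10 bases) lie across the annotated start. Those in Rps12 (11 bases) and Rpl26 (9 bases, ending at the window's edge) lie downstream of it, and the longest in Rps15a (10 bases) lies upstream, followed by a run of 9 bases, in lower case, across the start. Rps4x and Rpl3l had runs of 4 and 5 bases in this window. A run of at least 8 consecutive C or T bases, searched on the transcript strand only, was found in 48.7% of the members' windows (37 of 76) and in 22.9% of all windows in the table (7535 of 32851). By gene, 35 of the 64 members in the table had it at some start. It was present in 15 of 24 called genes and in 19 of 38 genes not called in R502W control. A run is a description of these letters; the start used in the heart may differ from the annotated one, and no match says nothing about regulation. Rpl3 was among the members not matched.

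Rpl3l (ENSMUSG00000002500, chr17:24727820-24736143, plus strand, GRCm38) was a substantial form beside Rpl3 (ENSMUSG00000060036, chr15:80077791-80091868, minus strand). Rpl3l had 71.1, 89.9, 96.5 and 66.5 CPM per kb of mRNA in R502W mavacamten, 60.2, 68.4, 88.5 and 92.1 in R502W control, and 132, 95.5, 77.6, 98.8 and 89.5 in WT control. Rpl3 had 132, 134, 118 and 156 CPM per kb in R502W mavacamten, 141, 154, 139 and 137 in R502W control, and 134, 254, 165, 159.5 and 138 in WT control. Rpl3 was the higher gene in all 13 libraries, and both genes overlapped between all groups.

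Neither gene was called in any comparison. The log2 fold change of Rpl3l was -0.35 ± 0.17 (edgeR adjusted p = 0.186) in R502W control minus WT control, 0.07 ± 0.18 (adjusted p = 1) in R502W mavacamten minus R502W control and -0.28 ± 0.17 (adjusted p = 0.309) in R502W mavacamten minus WT control. That of Rpl3 was -0.25 ± 0.16 (adjusted p = 0.317), -0.08 ± 0.17 (adjusted p = 1) and -0.33 ± 0.16 (adjusted p = 0.206) in the same comparisons. For comparison, the median over the other 81 tested ribosomal protein genes was -0.38 in R502W control minus WT control and -0.37 in R502W mavacamten minus WT control. The small difference of Rpl3l between the R502W groups turned to -0.02 without R502W mavacamten replicate 3 and to -0.03 without R502W control replicate 1. WT control replicate 2 alone held the highest Rpl3 level, and without it the Rpl3 difference from WT control was -0.10 in R502W control and -0.18 in R502W mavacamten.

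The ratio of Rpl3l to Rpl3 within a library does not depend on scaling. It was 0.537, 0.672, 0.817 and 0.426 in R502W mavacamten, 0.427, 0.442, 0.636 and 0.672 in R502W control, and 0.979, 0.377, 0.471, 0.620 and 0.649 in WT control. WT control held both the highest ratio (replicate 1) and the lowest (replicate 2), so its range covered both other groups. The mean log2 ratio was -0.75 ± 0.41 in R502W mavacamten (SD, n = 4), -0.91 ± 0.34 in R502W control (SD, n = 4) and -0.77 ± 0.52 in WT control (SD, n = 5).

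The groups' ratios did not differ beyond their spread. The difference in mean log2 ratio was -0.14 between R502W control and WT control (exact two-sided permutation p = 0.667), 0.16 between R502W mavacamten and R502W control (exact p = 0.571) and 0.02 between R502W mavacamten and WT control (exact p = 0.968). Adjusted over the 3 comparisons all were 0.968. The smallest p these designs allow is 0.0159 against WT control and 0.0286 between the R502W groups. The sign turned when single libraries were left out. Between R502W control and WT control the difference was 0.04 without WT control replicate 1. Between R502W mavacamten and WT control it was -0.04 without R502W mavacamten replicate 2, -0.13 without R502W mavacamten replicate 3, -0.14 without WT control replicate 2 and -0.06 without WT control replicate 3. Across the 13 libraries the ratio went with the summed ventricular cardiomyocyte markers (Pearson's r = 0.604, permutation p = 0.0292, adjusted 0.0584; Spearman's rho = 0.648, permutation p = 0.0189, adjusted 0.0378), and r was 0.509 without the 2 libraries farthest from the median. It was unrelated to the length trend (r = -0.02, permutation p = 0.95, adjusted 0.95; rho = -0.13, permutation p = 0.669, adjusted 0.669). These 2 relations were chosen after the data were seen, and groups of 4 or 5 libraries were too small to repeat them within groups.

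**Figure D4:**
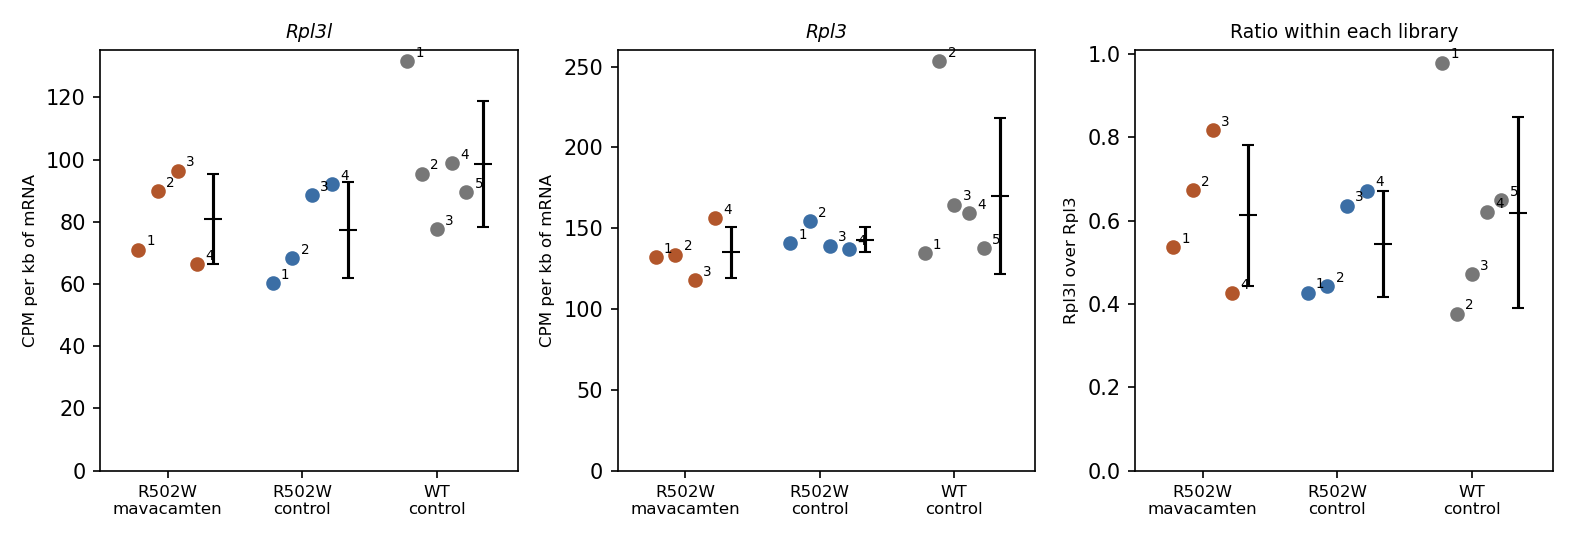
Rpl3l (left) and Rpl3 (middle) in CPM per kb of mRNA and their ratio within each library (right), in R502W mavacamten, R502W control and WT control. Points are libraries with their replicate number and bars are mean ± SD. In the right panel the WT control ratios run from 0.377 to 0.979 and cover those of both R502W groups.

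Other paralog pairs differed widely in how much the second form contributed. Per kb of mRNA, over the 13 libraries, Rpl36al reached 62.0% of Rpl36a, Rpl3l 57.4% of Rpl3, Rpl22l1 52.3% of Rpl22, Rps27l 25.4% of Rps27, Rpl7l1 5.55% of Rpl7 and Rpl39l 0.177% of Rpl39. Over the 13 libraries the share ran from 37.7% to 97.9% for Rpl3l and from 35.8% to 71.7% for Rpl22l1, and that of Rpl22l1 was highest in WT control replicate 2. The share of Rpl36al is uncertain, since near-identical copies of Rpl36a held 37.8% of the joint count of that gene and its copies. Rpl22l1 stood at 13.2, 11.2, 11.7 and 15.02 CPM in R502W mavacamten, at 10.3, 11.9, 9.33 and 12.4 CPM in R502W control and at 13.2, 26.25, 16.1, 14.1 and 13.1 CPM in WT control. Its R502W control libraries all lay below WT control, yet it was not called (log2 fold change -0.59 ± 0.19, edgeR adjusted p = 0.0624), and without WT control replicate 2, which alone passed 20 CPM, the value was -0.39. Rpl36al, Rps27l, Rps27rt and Rpl7l1 had no call in any comparison. Rps27rt is nearly identical in sequence to Rps27, so the division of reads between these genes is uncertain.

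Mouse ribosomal protein genes have many processed copies in the genome, and reads can be credited to them. Rows whose transcript aligned to a member at 95% identity or more existed for 79 of the 84 genes, 610 rows in all, and held 8.84% of the counts of members and copies together. The split was concentrated: 60 members had under 1% of their counts on copies and 14 had at least 15%. Rpl5, which with Rpl11 binds Mdm2, had 96.0% on copies, almost all on Gm15500. Rpl12 had 94.5%, mainly on Gm10275, Rpl10 84.9%, mainly on Rpl10-ps3, Rpl27a 62.7% and Rps23 51.6%. The level of each of these 5 genes on its own row is therefore uncertain, and so is that of the other 9.

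The share on copies moved with the groups for Rpl15, the gene with the lowest fold change on its own row. Its copies held 19.98% to 40.0% of the joint count in R502W mavacamten and 23.1% to 39.5% in R502W control, against 0.468% to 16.9% in WT control, mainly on Rpl15-ps3. The shares of Rps23, Rpl13, Rps13, Rpl28 and Rps12 were also higher in R502W control without overlap with WT control. Those of the rest of the 14 genes overlapped. With copies added, the log2 fold change of Rpl15 in R502W control minus WT control was -0.46 ± 0.12 in place of -0.93, still called. Rps23 likewise had -0.34 in place of -0.64 and Rps12 -0.47 ± 0.11 in place of -0.61, both still called. The lowest value among the members was then that of Rps27 (-0.73). Rows that are themselves members, such as Rps27rt, were not added as copies. Rpl13 (-0.25), Rps13 (-0.37), Rpl31 (-0.31) and Rpl28 (-0.34) lost their call. Rpl5 and Rpl10, not called on their own rows, had -0.36 ± 0.09 (edgeR adjusted p = 0.0244) and -0.40 ± 0.11 (edgeR adjusted p = 0.0358) with copies. In all, 35 members were called lower with copies added, 31 of them among the 35 called without, and the median was -0.36. In that setting 567 of all 14955 genes were called lower.

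**Figure D5:**
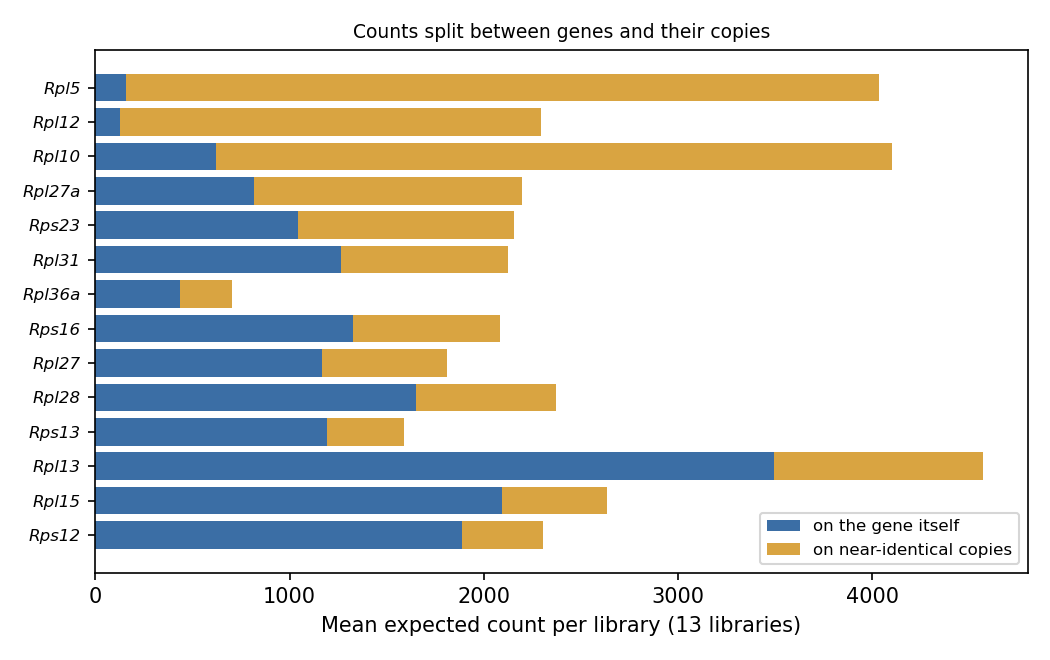
Mean expected count per library, over 13 libraries, on the gene itself (blue) and on near-identical copies (ochre) for the 14 ribosomal protein genes with at least 15% of their counts on copies. Rpl5 and Rpl12, at the top, have 96.0% and 94.5% on copies, and Rps12, at the bottom, has 18.1%.

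The treatment comparison asks what mavacamten changed in R502W hearts. No ribosomal protein gene was called: 0 of 82 in either direction by edgeR and 0 by DESeq2, against a background of 0% of all genes called by edgeR, and none of the 82 had an unadjusted p under 0.05. Over all genes, 525 had an unadjusted p under 0.05 in edgeR, and DESeq2 called 5 lower and 1 higher. The median log2 fold change was -0.02, or 0.988-fold, with a median SE of 0.13, and values ran from -0.48 (Rps27rt) to 0.22 (Rpl22l1). The groups did not overlap in 1 of the 82, Rpl9, with R502W mavacamten lower, against a background of 1.58% of all genes in that direction and 1.29% in the other. Rpl9, singled out after its values were seen, had 159, 159, 159 and 158 CPM in R502W mavacamten, against 159.5, 170.1, 173 and 168 CPM in R502W control. The smallest p-values belonged to Rpl7l1 (-0.18 ± 0.12), Rps27rt (-0.48 ± 0.35) and Rpl27 (-0.13 ± 0.13) among lower values and to Rps27 (0.19 ± 0.14), Rpl22l1 (0.22 ± 0.20) and Rps13 (0.18 ± 0.18) among higher ones. The division of reads between Rps27rt and Rps27 is uncertain, as said above. Rpl15 had 85.3, 109, 102 and 99.3 CPM in R502W mavacamten, within reach of the 85.3 to 97.7 CPM of R502W control (0.11 ± 0.14). Rps6 had 161, 181, 164 and 191 CPM in R502W mavacamten, across the 152 to 180.0 CPM of R502W control (0.07 ± 0.14). A missed threshold does not show that the groups were alike.

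R502W mavacamten was also set against WT control, a comparison that shares its WT control libraries with the genotype comparison. Of the 82 genes, 30 fell and none rose (edgeR adjusted p under 0.05), which is 36.6% against a background of 2.29% of all genes called lower and 5.93% called higher. The median was -0.37, or 0.773-fold, and all 82 values lay below 0, against 7451 of all 15000 genes. An unadjusted p under 0.05 was found for 64 of the 82, against 3878 of all 15000 genes in either direction. Calls covered 17 of 50 large-subunit and 13 of 32 small-subunit genes. In 48 of the 82 the groups did not overlap, all with R502W mavacamten lower, against a background of 3.79% of all genes in that direction and 8.54% in the other, and 27 of the 30 called genes were among them. The ranges of Rps21, Rpl37 and Rpl35 overlapped.

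The lowest adjusted p in R502W mavacamten minus WT control again belonged to Rpl15 (-0.81 ± 0.13, edgeR adjusted p = 0.00477), followed by Rps12 (-0.68 ± 0.12, adjusted p = 0.00792) and Rps15a (-0.64 ± 0.12, adjusted p = 0.0111). With copies added, Rpl15 had -0.44 ± 0.12 (edgeR adjusted p = 0.0371) and Rps12 -0.52 ± 0.11 (edgeR adjusted p = 0.0139). Rps15a had 71.4, 77.2, 75.4 and 76.4 CPM in R502W mavacamten, against 121, 157, 99.2, 113 and 94.1 CPM in WT control. All treated libraries lay below all WT control libraries. Rpl26 fell by 0.55 ± 0.11 and Rpl30 by 0.51 ± 0.11 on the log2 scale. Rps6 (-0.55 ± 0.13), Rps27 (-0.54 ± 0.14) and Rplp0 (-0.35 ± 0.09) were also called. Rps15, among the most abundant members, fell by 0.36 ± 0.10. With the length trend removed, Rps27 (-0.35), Rplp0 (-0.20) and Rps15 (-0.17) lost their calls.

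These calls, too, depended on single libraries. Rpl15, Rps12, Rps15a, Rpl26 and Rps18 were among the genes called whichever library was left out. How many of all genes met this was not counted. In all there were 15 calls without R502W mavacamten replicate 1, 9 without replicate 2, 10 without replicate 3 and 19 without replicate 4, and 20 without R502W control replicate 1 or 3, which enter through the shared spread. Without WT control replicate 2 there were 47, all 30 among them, at a median of -0.29. A fit of only the 2 groups called 3, library totals 19 and DESeq2 56. Calls lower over all genes went from 343 in the full fit to 218, 106, 151 and 237 without R502W mavacamten replicates 1 to 4. They were 222 and 233 without R502W control replicates 1 and 3, and 416 without WT control replicate 2. Only the 2 groups gave 74 over all genes, library totals 218 and DESeq2 716. With the length trend removed, 15 ribosomal protein genes were called, all among the 30, at a median of -0.27. In that setting 253 of all 14990 genes were called lower. With copies added 31 members were called, 26 of them among the 30, beside 342 of all 14955 genes called lower. Of the 5376 genes of similar exonic length, 3.44% were called lower in this comparison and 3596 lay below 0, with a median of -0.12. Of the 814 of these that also had a similar level, 6.63% were called lower, with a median of -0.10.

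Of 4 ribosomal protein genes whose symbols fall outside the naming pattern, 3 fell in R502W control (75.0%, against 3.75% of all genes) and 2 in R502W mavacamten (against 2.29% of all genes), both relative to WT control. Rack1, the signalling scaffold on the small subunit, fell by 0.39 ± 0.11 in R502W control minus WT control, and Rps3a1 by 0.40 ± 0.12 on the log2 scale. Fau, a ubiquitin-like fusion of a small-subunit protein, had -0.40 ± 0.13 without a call. In R502W mavacamten minus WT control, Rack1 (-0.42 ± 0.11) and Rps3a1 (-0.44 ± 0.12) were called, and Fau was not. Of Rack1, Rps3a1 and Fau, only Rack1 was called, in both comparisons, once the length trend was removed. None of the 4 was called between the R502W groups.

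Other genes of the translation machinery were called in both directions. Of 35 initiation factors, 5 fell (14.3%, against 3.75% of all genes) and 4 rose (11.4%, against 8.63%) in R502W control minus WT control. In R502W mavacamten minus WT control 2 fell (5.71%, against 2.29%) and 4 rose (11.4%, against 5.93%). In the genotype comparison the 5 that fell were the eIF3 subunits Eif3f (-0.40 ± 0.10), Eif3k (-0.40 ± 0.11), Eif3i (-0.25 ± 0.07), Eif3m (-0.32 ± 0.09) and Eif3l (-0.21 ± 0.06). Eif3a, the largest scaffold of the same complex, rose by 0.58 ± 0.12, with Eif4g1 (0.45 ± 0.08), a scaffold of the cap-binding complex, and with Eif5b (0.43 ± 0.10) and Eif4g3 (0.35 ± 0.09). With the length trend removed, Eif3f, Eif3k, Eif3i, Eif3a and Eif4g1 were still called, while Eif3m (-0.23), Eif3l (-0.19), Eif5b (0.21) and Eif4g3 (0.10) were not. Of 12 elongation and termination factors, 1 was called in either comparison with WT control, Eef1b2, a nucleotide exchange factor. It fell by 0.42 ± 0.12 in R502W control minus WT control (8.33% of the list, against 3.75% of all genes). In R502W mavacamten minus WT control it fell by 0.43 ± 0.12 (8.33%, against 2.29%). Of 8 other TOP mRNAs, 1 fell in the genotype comparison, Tpt1 (-0.41 ± 0.12), which is 12.5% against 3.75% of all genes. None was called in R502W mavacamten minus WT control, against 2.29% of all genes lower. Neither Eef1b2 nor Tpt1 was called in either comparison once the length trend was removed.

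Ribosome biogenesis genes were counted beside the ribosomal proteins. Of 61, 1 fell (1.64%, against 3.75% of all genes) and 5 rose (8.20%, against 8.63%) in R502W control minus WT control, with a list median of 0.06. Imp3, a component of the small-subunit processome, fell by 0.64 ± 0.10. Mdn1 (0.75 ± 0.11), a very long AAA+ ATPase of pre-60S maturation, Bysl (0.53 ± 0.09), Ddx21 (0.46 ± 0.07), Tsr1 (0.45 ± 0.11) and Heatr1 (0.44 ± 0.09) rose. With the length trend removed Mdn1 had 0.28 and Heatr1 0.28, neither called. Of 21 genes of the mTOR pathway and TOP regulation, 1 fell (4.76%, against 3.75% of all genes) and 5 rose (23.8%, against 8.63%). Larp1, the TOP-binding repressor, rose by 0.67 ± 0.10, Mtor by 0.58 ± 0.11, Rptor by 0.37 ± 0.07, Tsc1 by 0.56 ± 0.14 and Ddit4 by 0.77 ± 0.20, while Pdcd4, an inhibitor of eIF4A, fell by 0.62 ± 0.14. With the length trend removed Mtor was at 0.37 and still called, whereas Rptor (0.05) and Tsc1 (0.31) were not. In that setting 781 of all 14990 genes were called higher, against 1294 of 15000 in the main fit. Without WT control replicate 2 Tsr1 lost its call. Of the genes named from these lists in the genotype comparison, Larp1, Mtor, Rptor, Eif4g1, Eif3a, Ddx21, Mdn1, Imp3, Bysl and Heatr1 were called whichever library was left out.

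In R502W mavacamten minus WT control, 1 biogenesis gene fell (1.64%, against 2.29% of all genes) and 4 rose (6.56%, against 5.93%). Of the mTOR and TOP list 2 fell (9.52%) and 4 rose (19.0%). Larp1 rose by 0.58 ± 0.10, Mtor by 0.46 ± 0.11, Ddx21 by 0.46 ± 0.07 and Mdn1 by 0.75 ± 0.11, while Rps6kb2, an S6 kinase, fell by 0.37 ± 0.08. Mtor (0.25) and Mdn1 (0.29) lost their calls once that trend was taken out, and the other 3 kept theirs. Between R502W mavacamten and R502W control no gene of these 6 lists was called by edgeR or DESeq2. Of their 141 genes tested, 4 had an unadjusted p under 0.05 in edgeR, against 525 of all 15000 genes.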

How the data were processed

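Whole mouse hearts were profiled by strand-specific, poly(A)-selected RNA-seq, per the labels' protocols. The authors deposited expected counts per Ensembl gene for 13 libraries, estimated with RSEM on GRCm38, per the submitters' processing notes, which also name cutadapt, FastQC and DESeq2 without versions. The aligner and the strand setting are not given in the sources used here. RSEM divides reads that fit several rows, so counts of genes with near-identical copies depend on that division. GENCODE M21 gave a symbol for 55230 of the 55471 IDs, and 241 had none. Members were matched by symbol.

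Expected counts were rounded to whole numbers. The 22 pairs of libraries within groups differed by more than sampling noise (chi-square per degree of freedom 7.31 to 103), so every library was kept. Genes were filtered by filterByExpr (minimum count 10, minimum total 15), scaled by TMM and fitted with edgeR 4.0.16 (R 4.3.3), 1 mean per group over 13 libraries, with Benjamini-Hochberg adjustment over 15000 genes and a threshold of 0.05. CPM uses TMM-scaled totals, and levels per kb use the annotated principal mRNA, which for a few genes (Rps15a, Rps20, Rpl18) is far longer than the coding part. The Rpl3l to Rpl3 ratio was compared by an exact permutation test. Copies were found with blastn 2.17.0 (identity at least 95% over at least 80% of the shorter sequence and 150 bases), an alternative added after the data were seen. Other alternatives were RLE factors, library totals, no filter, DESeq2 1.42.0, fits of 2 groups, a replicate block, removal of each library's trend along exonic length (lowess span 0.3), named pseudogene rows and leaving out each library. The count test was tested on simulated data.

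The members and lists were chosen with earlier results of these data known. Genes named were Rpl3l and Rpl3, paralogs and their parents, Rps6, Rpsa and the stalk genes, the 5 members highest per kb, up to 8 called members per comparison by adjusted p (the 3 smallest p-values in each direction where fewer than 3 were called) and up to 4 called members of each other list. Some genes that this rule names are not reported here. Other genes named were chosen after their values were seen.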

Additional observations from a re-analysis of the deposited data

Results flagged for a closer look

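Within each group, the highest and lowest library of the named genes and of the summed level were checked for a gap to the nearest other library that is large for the group's range. Of 93 groups of values, 14 were flagged, and chance flags about 1 in 20. WT control replicate 2 accounted for 12 of them, each time as the highest library. It had 17800 summed CPM of all ribosomal protein genes, against 13200 in the next WT control library. The same library was highest for Rpsa (652 CPM), Rpl7 (419 CPM), Rps6 (351 CPM), Rpl3 (342 CPM), Rplp1 (302 CPM), Rpl22 (136 CPM), Rps27 (122 CPM), Rpl27 (110.0 CPM), Rps27l (43.7 CPM) and Rpl22l1 (26.3 CPM). Rpl10 reached 104 CPM there, against 33.9 CPM in the next WT control library. That library also held 596.3 CPM of T cell and thymus markers, and their part in these levels was not tested.

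The other 2 flags were low libraries. Rpl30 had 84.0 CPM in R502W mavacamten replicate 2, against 90.8 CPM in the nearest library of that group. Rpl26 had 124 CPM in R502W control replicate 4, against 131 CPM in the nearest.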

How the results depend on the processing

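Counts of ribosomal protein genes called lower, 35 in R502W control minus WT control and 30 in R502W mavacamten minus WT control, depended on the settings, and none of the alternatives run called a ribosomal protein gene higher. Library totals gave 20 and 19, fits of only the 2 groups 22 and 3, and DESeq2 54 and 56. With the length trend removed there were 25 and 15. Leaving out each library gave 10 to 51 and 9 to 47. Calls lower over all genes, 562 and 343 in the main fit, moved as well. They were 341 and 218 with library totals, 394 and 74 with only the 2 groups, and 1080 and 716 by DESeq2. With the length trend removed they were 528 and 253, and with each library left out 208 to 756 and 106 to 416. The labels do not say whether the sample numbers pair the libraries. Correlations of same-numbered deviations ran from -0.323 to 0.253, and so few libraries cannot settle it. With the sample numbers as a replicate block, 24 and 13 ribosomal protein genes were called, and 0 in R502W mavacamten minus R502W control. Of all 14951 genes in that setting, 220 and 81 were called lower and 743 and 268 higher. The Rpl3l to Rpl3 log2 ratio ran from -0.30 to 0.04 between R502W control and WT control with libraries left out, with the sign turned without WT control replicate 1 (0.0445). Between R502W mavacamten and WT control it ran from -0.14 to 0.20, with the sign turned without R502W mavacamten replicate 2 (-0.0385) or 3 (-0.132) and without WT control replicate 2 (-0.14) or 3 (-0.0594). Rpl3l in R502W mavacamten minus R502W control ran from -0.03 to 0.16, below 0 without R502W mavacamten replicate 3 (-0.0161) or R502W control replicate 1 (-0.0349). The cause of these shifts was not tested. The number of libraries limits what differences of about the SE can show.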
